A study of Mus musculus with 12 samples.

Results

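Messenger RNA of 9 genes that mark macrophages was followed in mouse hearts under pressure overload and under a diet without branched-chain amino acids (BCAA). The genes were chosen by name, as markers of resident and recruited macrophages, and all 9 were found among the 16246 genes listed in any of the 4 deposited tables and among the 15089 genes listed in all of them. They are Csf1r, Mrc1, Adgre1, Cd68, Cd163, Lyve1, Ccr2, Cx3cr1 and Tlr4, and each passed the filter on low values in every comparison. PolyA RNA of whole heart from 12-week-old male C57Bl/6J mice was sequenced in 4 groups of 3 samples. Mice of the BCAA-free TAC group ate a diet from which BCAA were left out and underwent transverse aortic constriction (TAC), a narrowing of the aortic arch that raises the pressure load on the left ventricle. BCAA-free sham mice ate the same diet and had the sham operation, control diet TAC mice ate a diet with BCAA at the level of ordinary chow and underwent TAC, and control diet sham mice ate that diet and had the sham operation. The diets began 4 days before surgery and went on until hearts were taken 2 weeks after it. The labels name no transgene and do not say whether a sample was 1 heart or a pool, so the p-values reflect the spread among deposited samples alone, some or all of which may be technical.

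The adult heart holds macrophages that settled before or around birth and renew themselves in place, and others that derive from blood monocytes recruited after injury. Signalling through the receptor encoded by Csf1r keeps both kinds alive, resident cells are often recognised by Lyve1, Cd163 and Mrc1, and recruited cells by Ccr2, the receptor through which monocytes follow the chemokine CCL2. None of the 9 genes is restricted to 1 state: Lyve1 is also a gene of lymphatic endothelium, and Tlr4, the receptor for bacterial lipopolysaccharide and for some products of damaged tissue, is also expressed by endothelial cells and cardiomyocytes.

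Promoter sequences were matched for 5 of the 9 genes in RefSeq (GRCm38.p6), each from 250 bases before the start site to 50 bases after it. Those of Mrc1, Cd68 and Cx3cr1 are shown because these genes were lower in BCAA-free TAC than in control diet TAC hearts, and that of Cd163 because its groups overlapped in every comparison. Capitals mark GAGGAA, or TTCCTC on the other strand, the core of sites bound by PU.1, a transcription factor of myeloid cells. Mrc1 is read from chr2:14229164-14229463 (plus strand), Cd68 from chr11:69666121-69666420 (minus strand), Cx3cr1 from chr9:120068247-120068546 (minus strand) and Cd163 from chr6:124304401-124304700 (plus strand).
Mrc1: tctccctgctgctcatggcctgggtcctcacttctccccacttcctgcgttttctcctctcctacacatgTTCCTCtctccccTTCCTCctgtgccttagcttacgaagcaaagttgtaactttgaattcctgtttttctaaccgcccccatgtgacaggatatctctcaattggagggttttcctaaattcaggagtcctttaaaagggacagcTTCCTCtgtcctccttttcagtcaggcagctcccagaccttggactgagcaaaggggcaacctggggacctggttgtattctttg
Cd68: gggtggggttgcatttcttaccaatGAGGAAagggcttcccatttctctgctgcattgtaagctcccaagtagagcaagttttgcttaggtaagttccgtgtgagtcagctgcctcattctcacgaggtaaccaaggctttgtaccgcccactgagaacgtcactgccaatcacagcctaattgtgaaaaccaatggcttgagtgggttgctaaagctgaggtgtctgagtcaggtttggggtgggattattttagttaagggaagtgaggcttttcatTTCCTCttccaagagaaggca
Cx3cr1: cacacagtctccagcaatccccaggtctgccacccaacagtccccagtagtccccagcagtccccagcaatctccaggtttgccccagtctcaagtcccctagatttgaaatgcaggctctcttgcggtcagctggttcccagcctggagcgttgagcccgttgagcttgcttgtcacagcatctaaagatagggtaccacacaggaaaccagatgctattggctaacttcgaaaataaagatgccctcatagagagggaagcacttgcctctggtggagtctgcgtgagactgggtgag
Cd163: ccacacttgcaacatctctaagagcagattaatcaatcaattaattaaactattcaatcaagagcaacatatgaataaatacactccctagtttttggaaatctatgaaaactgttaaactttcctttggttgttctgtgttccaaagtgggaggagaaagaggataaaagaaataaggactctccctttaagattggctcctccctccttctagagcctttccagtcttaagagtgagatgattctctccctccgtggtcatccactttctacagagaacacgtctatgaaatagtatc
The Mrc1 sequence held 3 matches, the Cd68 sequence 2, and the Cx3cr1 and Cd163 sequences 0 each. That of Ccr2, which is not shown, also held 0, so of the 4 matched genes that fell after TAC, Mrc1 and Cd68 held matches and Cx3cr1 and Ccr2 did not. Of 32851 mouse promoters of this length, 28.3% held at least 1 match on either strand. A match to these letters is a description of the sequence and does not show that the factor binds.

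Library sizes, recovered from the deposited values, lay between 13848953 reads (BCAA-free sham replicate 2) and 52059546 reads (control diet TAC replicate 3). Counting depth differed widely among the markers: Csf1r had 388 to 2730 reads in a library and Mrc1 234 to 1629, whereas Ccr2 had 7 to 170 and Cx3cr1 22 to 243. Control diet TAC replicate 2 and control diet sham replicate 3 lay farther from their fellow replicates than other libraries of the control diet did. The 3 BCAA-free TAC libraries also stood apart in base composition: Spearman's rho between a gene's GC content and its level relative to the average library was 0.21, 0.42 and 0.41 in them and -0.23 to 0.039 in the other 9. Tlr4 and Ccr2 have a GC content of 39.4%, Mrc1 of 43.4% and Csf1r of 54.5%. Values with the GC and length trend removed are therefore given for the 9 genes where they change a call, and for all 9 in the comparison of diets after TAC. For the pan-myeloid and resident macrophage lists, counts with it removed are given where they differ. For the other lists, and for single genes of any list, no such values are given, so whether those calls hold without the trend is not shown. The tissue label fitted its markers, since 8 cardiomyocyte genes summed to 49100 to 80400 RPM (reads in a library of common size, scaled by TMM). Of markers of other blood cells, 0 of 5 natural killer cell, 1 of 8 T cell, 3 of 7 dendritic cell, 4 of 7 neutrophil, 5 of 6 B cell and 6 of 6 mast cell genes were listed in both comparisons of TAC with sham.

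The gene models lie on 8 chromosomes of GRCm38 and all encode proteins. Csf1r spans chr18:61100598-61132149, Mrc1 chr2:14229392-14332057, Adgre1 chr17:57358691-57483527, Cd68 chr11:69664213-69666153, Cd163 chr6:124304656-124330527, Lyve1 chr7:110850607-110863239, Ccr2 chr9:124101950-124113557, Cx3cr1 chr9:119901616-120069879 and Tlr4 chr4:66827584-66930284. Cd68, Lyve1 and Cx3cr1 are on the minus strand and the others on the plus strand. Of the exon bases of Csf1r, 873 of 5774 are shared with Hmgxb3 on the opposite strand, and of those of Cx3cr1, 78 of 4505 are shared with the antisense gene Gm33858. The sources used here do not say whether counting used strand, so reads in these stretches cannot be assigned to 1 of the 2 genes with certainty. Hmgxb3 itself passed the test in none of the 4 comparisons of groups, with log2 fold changes of -0.16 to 0.13.

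Per kilobase of the longest annotated transcript, Csf1r, Lyve1 and Cd163 were the most abundant of the markers and Ccr2 the least. The median level over 12 libraries, in RPM per kilobase, was 7.76 for Csf1r, 7.55 for Lyve1, 5.8 for Cd163, 4.1 for Mrc1, 4.05 for Cd68, 2.46 for Tlr4, 2.38 for Adgre1, 0.409 for Cx3cr1 and 0.171 for Ccr2. The rare markers varied most: the highest library exceeded the lowest 9.18-fold for Ccr2, 6.35-fold for Cx3cr1 and 4.54-fold for Adgre1, against 1.74-fold for Cd163 and 1.88-fold for Csf1r. Of the 9 genes, 7 had their highest mean in the control diet TAC group, with all 3 of its libraries above every library of the group next in order on this scale, although control diet sham replicate 1 exceeded 1 of them for Ccr2. The share of all genes with this order was not counted. By pairs of groups, on deposited values, control diet TAC lay wholly above control diet sham in 17.8% of all genes. BCAA-free TAC lay wholly below control diet TAC in 25.6%. Among the markers, the order below the top differed by gene. For Mrc1 and Adgre1 the control diet sham group came next and lay above both BCAA-free groups, which overlapped each other. For Tlr4 the BCAA-free sham and control diet sham groups overlapped and the BCAA-free TAC group lay below both. For Ccr2 and Cx3cr1 the other 3 groups formed overlapping neighbours, and for Cd163 and Lyve1 every pair of neighbours overlapped.

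**Figure D1:**
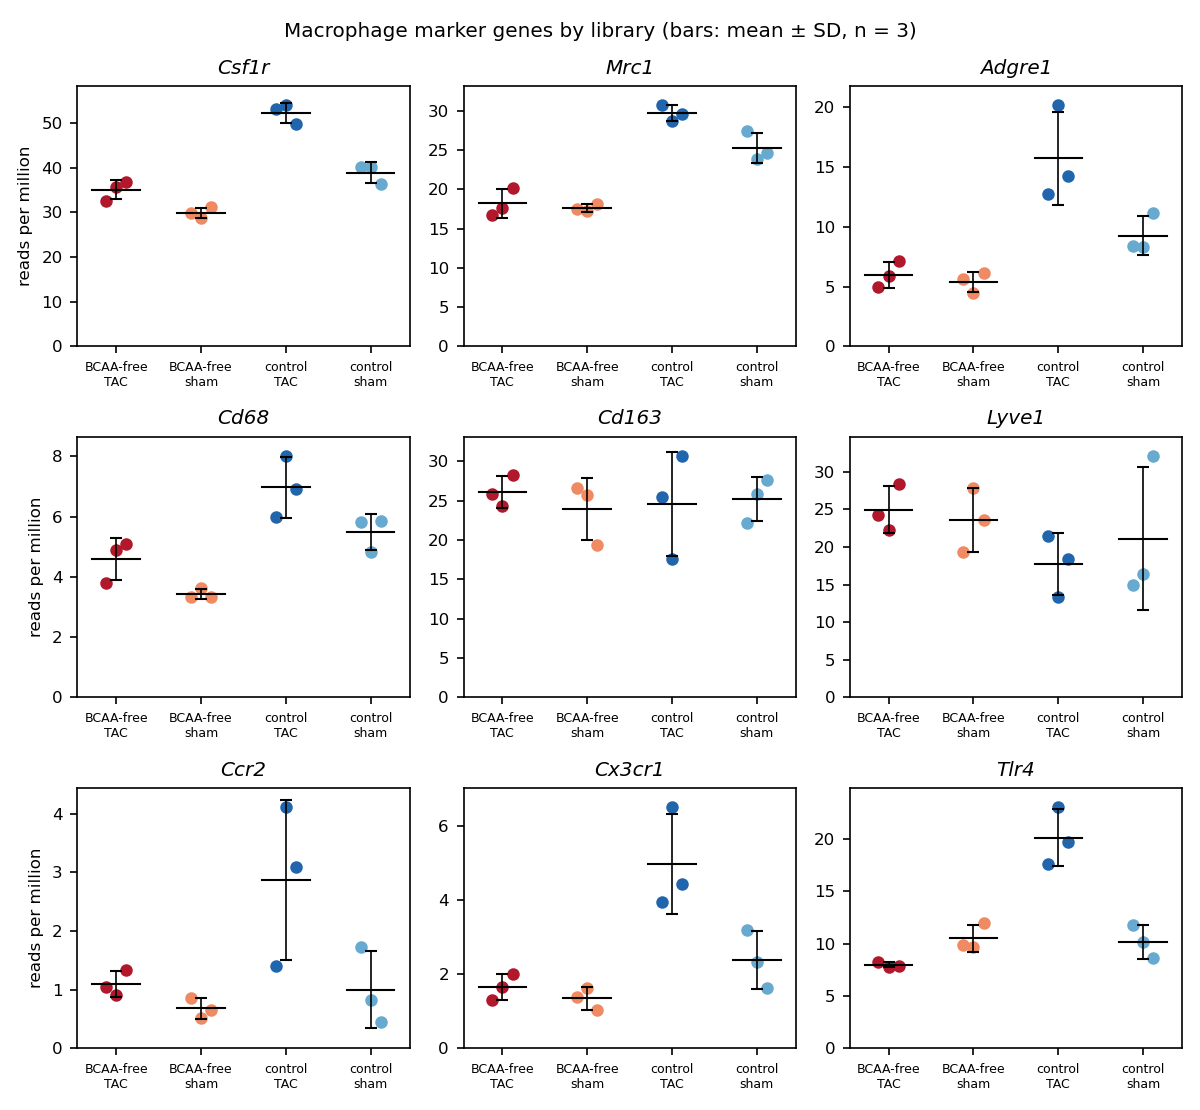
Level of each marker in every library, in reads per library of common size (RPM, TMM scaled) (y axes, each starting at 0), by group (x axis); points are libraries, long lines means and bars SD (n = 3 per group). The mean of the control diet TAC group is highest for 7 genes, with its libraries above all others for 6 of them and, for Ccr2, 1 library below control diet sham replicate 1, whereas for Cd163 and Lyve1 groups next to each other in order overlap. The share of all genes with such an order was not counted.

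After TAC, the BCAA-free diet went with lower mRNA of most of these markers than the control diet did. Against the control diet TAC group, 7 of the 9 fell in the BCAA-free TAC group, namely Tlr4, Cx3cr1, Adgre1, Ccr2, Mrc1, Cd68 and Csf1r, and 1 of the 9, Lyve1, rose (limma, Benjamini-Hochberg adjusted p under 0.05). Among all 15872 genes tested, 34.2% passed this test, 17.7% falling and 16.5% rising. The BCAA-free TAC libraries lay wholly below the control diet TAC libraries in 7 of the 9 genes, as in 25.6% of all genes, and wholly above them in 1, as in 25.2% of all genes. The median log2 fold change was -0.71 over the 9 genes and 0.000258 over all genes. In bulk tissue, fewer cells of a type and less RNA per cell cannot be told apart, and this holds for every comparison of these hearts. The levels that follow are the normalized read counts that the authors deposited for this pair of groups.

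The chemokine and growth factor receptors fell by different amounts. Cx3cr1, the receptor for fractalkine, had 47.17, 60.6 and 73.05 counts in BCAA-free TAC hearts, against 144, 235.8 and 161.6 counts in control diet TAC hearts. The highest BCAA-free TAC library stood far below the lowest control diet TAC library, and the log2 fold change was -1.56 ± 0.23 (SE, adjusted p = 0.00227). Ccr2 had 38.14, 33.29 and 48.37 counts in BCAA-free TAC hearts, against 51.15, 149.3 and 113.1 counts in control diet TAC hearts. These groups nearly touched, because control diet TAC replicate 1 stood close to the BCAA-free libraries, and the log2 fold change was -1.25 ± 0.37 (adjusted p = 0.0304). Csf1r, the receptor for the growth factors CSF1 and IL-34, had 1189, 1306 and 1331 counts in BCAA-free TAC hearts, against 1932, 1958 and 1816 counts in control diet TAC hearts. Replicates of Csf1r lay close together in both groups, with means of 1275 ± 75.5 counts in BCAA-free TAC hearts and 1902 ± 75.7 counts in control diet TAC hearts (SD, n = 3 each), and the log2 fold change was -0.58 ± 0.078 (adjusted p = 0.00162).

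Tlr4 had the smallest p-value of the 9 genes. It had 302.1, 285.9 and 287.3 counts in BCAA-free TAC hearts, against 643.4, 837 and 721 counts in control diet TAC hearts. Every BCAA-free TAC library lay far below every control diet TAC library, and the BCAA-free libraries differed little from each other. Its log2 fold change was -1.32 ± 0.11 (adjusted p = 0.000331). With the GC and length trend removed it was -1.12 (adjusted p = 0.000686).

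The surface and lysosomal markers of macrophages at large fell as well. Adgre1, which encodes a surface receptor of mature mouse macrophages, had 179.6, 215.1 and 258.6 counts in BCAA-free TAC hearts, against 465.7, 732.2 and 520.8 counts in control diet TAC hearts. The log2 fold change of Adgre1 was -1.38 ± 0.19 (adjusted p = 0.00196), and the groups were widely separated. Cd68, a glycoprotein of phagocyte lysosomes, had 138.5, 178.4 and 184.6 counts in BCAA-free TAC hearts, against 218.1, 290.8 and 252.7 counts in control diet TAC hearts. Its groups lay apart by less than their own range, and the log2 fold change was -0.60 ± 0.16 (adjusted p = 0.0202).

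The scavenger and lectin receptors, often taken as marks of resident cells, went separate ways. Mrc1, the mannose receptor CD206, had 613.2, 643.5 and 734.4 counts in BCAA-free TAC hearts, against 1120, 1044 and 1083 counts in control diet TAC hearts, -0.71 ± 0.091 on the log2 scale (adjusted p = 0.00138). Lyve1, a hyaluronan receptor, had 886.1, 812.5 and 1032 counts in BCAA-free TAC hearts, against 782.1, 484.6 and 672.4 counts in control diet TAC hearts. All 3 BCAA-free TAC libraries stood above all 3 control diet TAC libraries by a narrow gap, and the log2 fold change was 0.51 ± 0.17 (adjusted p = 0.0489). Cd163, the receptor that takes up haemoglobin bound to haptoglobin, had 942.3, 887.6 and 1024 counts in BCAA-free TAC hearts, against 928.8, 639.2 and 1119 counts in control diet TAC hearts. The control diet TAC libraries of Cd163 spread below and above all of the BCAA-free ones, and the log2 fold change was 0.12 ± 0.18 (adjusted p = 0.638).

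The falls of Csf1r, Mrc1, Adgre1, Cx3cr1 and Tlr4 passed the test under all 16 other settings tried, whereas those of Ccr2 and Cd68 and the rise of Lyve1 did not. With the GC and length trend removed, the fall of Mrc1 was -0.45 on the log2 scale (adjusted p = 0.0123), against -0.71 with it, and Csf1r was at -0.52, Adgre1 at -1.29, Cx3cr1 at -1.45, Cd68 at -0.74, Lyve1 at 0.62 and Cd163 at 0.27. Ccr2 missed the threshold with the GC and length trend removed (log2 fold change -0.95, adjusted p = 0.0853) and without control diet TAC replicate 3 or any 1 BCAA-free TAC replicate (adjusted p from 0.0579 to 0.101). Cd68 missed it without control diet TAC replicate 3 or BCAA-free TAC replicate 1 (adjusted p of 0.058 and 0.0715). Lyve1 missed it with library totals as the scaling (0.38, adjusted p = 0.0756), in a fit of all 12 libraries (adjusted p = 0.166) and without control diet TAC replicate 3 or any 1 BCAA-free TAC replicate (adjusted p from 0.0717 to 0.155). Without control diet TAC replicate 2 the rise of Lyve1 was 0.32 (adjusted p = 0.0499).

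**Figure D2:**
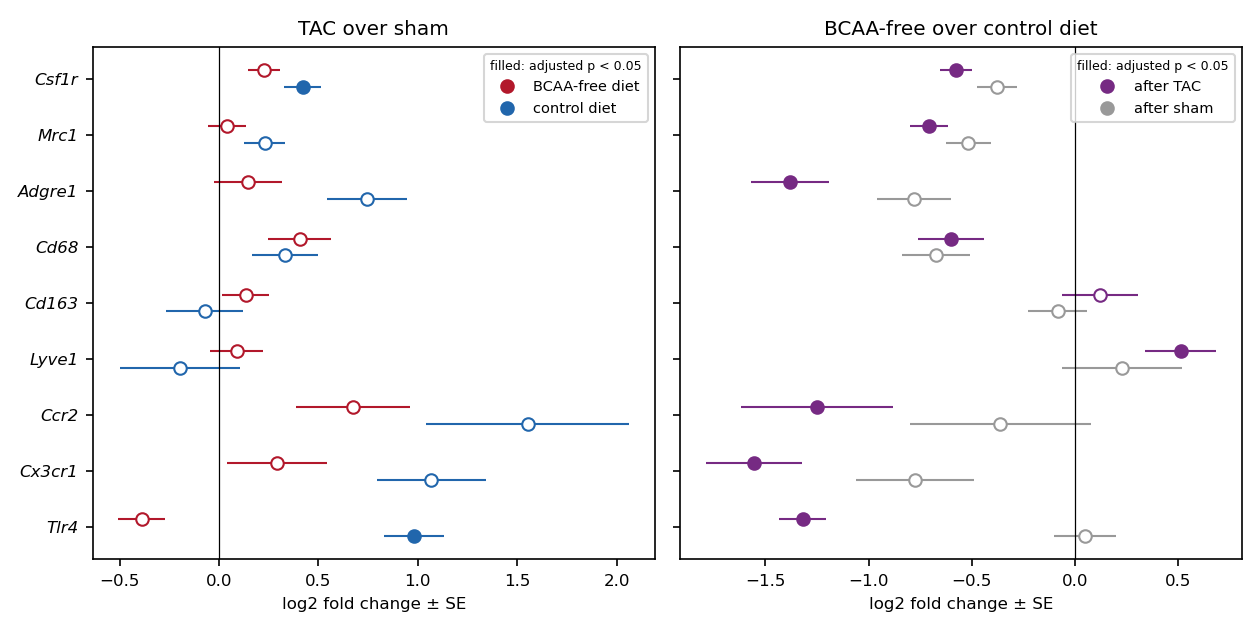
Log2 fold change ± SE (x axes) of each marker (y axis) for TAC over sham on each diet (left) and for the BCAA-free over the control diet after each operation (right); filled points have an adjusted p under 0.05 (limma, 3 libraries per group). Tlr4 lies right of 0 with TAC on the control diet and left of 0 on the BCAA-free diet, and 8 of the 9 points after TAC are filled in the right panel.

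After the sham operation, 0 of the 9 genes passed the test between diets, where 0.624% of 15217 genes did. At an unadjusted p under 0.05, 2525 genes were found in this comparison, and on recovered reads DESeq2 called 3 of the 9 and edgeR 0. The BCAA-free sham libraries of 5 genes, Mrc1, Adgre1, Cd68, Csf1r and Cx3cr1, lay wholly below those of control diet sham, as did those of 11.3% of all genes. Mrc1 had 505.5, 500.1 and 524.3 counts in BCAA-free sham hearts, against 790.6, 680.3 and 723.3 counts in control diet sham hearts. Its BCAA-free sham libraries were almost equal, the log2 fold change was -0.52 ± 0.11 and the adjusted p was 0.0555. Adgre1 had 161.9, 128.2 and 176.1 counts in BCAA-free sham hearts, against 240.5, 235.9 and 328 counts in control diet sham hearts, with a log2 fold change of -0.78 ± 0.18 (adjusted p = 0.0676). Cd68 had 96.09, 104.7 and 96.17 counts in BCAA-free sham hearts, against 167.4, 137.3 and 172.6 counts in control diet sham hearts, with a log2 fold change of -0.67 ± 0.17 (adjusted p = 0.0848). Csf1r followed at -0.38 ± 0.098 on that scale (adjusted p = 0.0987) and Cx3cr1 at -0.77 ± 0.29 (adjusted p = 0.216), also without overlap. Tlr4 did not separate: it had 285.9, 280 and 345.3 counts in BCAA-free sham hearts, against 339.8, 289.6 and 252.9 counts in control diet sham hearts. Control diet sham replicate 3 stood apart in Lyve1, where it had 943.3 counts where the other two had 430.6 and 466.9. In the authors' deposited table for this pair, Mrc1, Adgre1 and Cd68 had adjusted p-values of 0.00794, 0.00912 and 0.0307. Without control diet sham replicate 3, Mrc1 and Csf1r passed the test. With the GC and length trend removed, Mrc1 (adjusted p = 0.0165), Csf1r and Adgre1 did. More of all genes, too, passed with the trend removed and with DESeq2, as counted in the last section.

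On the control diet, Csf1r and Tlr4 rose with TAC relative to sham, 2 of the 9 genes, where 4.04% of 15397 genes passed the test and 2.95% rose. The control diet TAC libraries lay wholly above control diet sham in 5 genes, Csf1r, Mrc1, Adgre1, Cx3cr1 and Tlr4, as in 17.8% of all genes. The median log2 fold change was 0.42 over the 9 genes and -0.00467 over all genes. Tlr4 had 525.8, 688.6 and 592 counts in control diet TAC hearts, against 351.6, 299 and 264.2 counts in control diet sham hearts. The TAC libraries stood far above the sham libraries, with means of 602.1 ± 81.9 counts with TAC and 304.9 ± 44.0 counts with sham (SD, n = 3 each), a difference of 0.98 ± 0.15 on the log2 scale of the test (adjusted p = 0.0363). Csf1r had 1578, 1611 and 1491 counts in control diet TAC hearts, against 1195, 1184 and 1113 counts in control diet sham hearts, with a log2 fold change of 0.42 ± 0.092 (adjusted p = 0.0455). The groups of Csf1r were well apart and each was narrow.

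Larger fold changes of rarer markers did not pass the test on the control diet. Cx3cr1 had 117.7, 194 and 132.7 counts in control diet TAC hearts, against 94.86, 68.3 and 49.53 counts in control diet sham hearts, with a log2 fold change of 1.07 ± 0.28 (adjusted p = 0.0579). Adgre1 had 380.6, 602.4 and 427.6 counts in control diet TAC hearts, against 248.9, 243.6 and 342.6 counts in control diet sham hearts, with a log2 fold change of 0.74 ± 0.20 (adjusted p = 0.0618). In both genes the highest value was that of control diet TAC replicate 2. Ccr2 had 41.8, 122.9 and 92.84 counts in control diet TAC hearts, against 51.35, 24.48 and 13.76 counts in control diet sham hearts. These Ccr2 groups overlapped, since control diet sham replicate 1 exceeded control diet TAC replicate 1, and the log2 fold change was 1.55 ± 0.51 (adjusted p = 0.0944). Mrc1, Cd68, Cd163 and Lyve1 had log2 fold changes of 0.23, 0.33, -0.07 and -0.20 (adjusted p of 0.177 to 0.836). In the authors' deposited table for this pair, adjusted p-values were under 0.05 for 5 genes, Csf1r, Tlr4, Cx3cr1, Adgre1 and Ccr2. The call of Csf1r was lost without each of the 6 libraries in turn (adjusted p from 0.0636 to 0.114) and with the GC and length trend removed (0.28, adjusted p = 0.0509), and that of Tlr4 without control diet sham replicate 1 or 2 or control diet TAC replicate 3 (adjusted p of 0.0962, 0.107 and 0.0703). With the GC and length trend removed, Adgre1 passed the test (0.67, adjusted p = 0.0497), so that the count was 2 there too, of Adgre1 and Tlr4. A fit of all 12 libraries and DESeq2 on recovered reads each called 5 of the 9. More of all genes passed under both, and with the trend removed, as counted in the last section.

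On the BCAA-free diet, 0 of the 9 genes passed the test between TAC and sham, where 6.23% of 15670 genes did. At an unadjusted p under 0.05, 3841 genes were found in this comparison, and on recovered reads DESeq2 called 1 of the 9, Tlr4 (log2 fold change -0.41, adjusted p = 0.0471), and edgeR 0. The BCAA-free TAC libraries lay wholly above BCAA-free sham in 3 of the 9 genes, as in 14.6% of all genes, and wholly below in 1, as in 15% of all genes. That gene was Tlr4, with 291.5, 275.4 and 277.1 counts in BCAA-free TAC hearts, against 348.2, 341 and 420.3 counts in BCAA-free sham hearts. The log2 fold change of Tlr4 was -0.39 ± 0.12 (adjusted p = 0.0695), and -0.20 (adjusted p = 0.477) with the GC and length trend removed. Csf1r had 1148, 1258 and 1284 counts in BCAA-free TAC hearts, against 1050, 1010 and 1093 counts in BCAA-free sham hearts, with a log2 fold change of 0.23 ± 0.08 (adjusted p = 0.107). Cd68 had 133.7, 171.8 and 178.1 counts in BCAA-free TAC hearts, against 117, 127.6 and 117.1 counts in BCAA-free sham hearts, with a log2 fold change of 0.41 ± 0.16 (adjusted p = 0.141). Ccr2, the third gene above, had 36.8, 32.06 and 46.66 counts in BCAA-free TAC hearts, against 30.49, 18.22 and 23.27 counts in BCAA-free sham hearts, with a log2 fold change of 0.67 ± 0.29 (adjusted p = 0.171). The other 5 genes overlapped between groups and had log2 fold changes of 0.04 to 0.29.

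The response to TAC differed between the diets for 1 of the 9 genes, Tlr4, where 8.65% of 15195 genes passed that test. The TAC effect on Tlr4 was a log2 fold change of -0.39 on the BCAA-free diet and of 0.98 on the control diet, a difference of -1.37 ± 0.19 (limma interaction term, adjusted p = 0.00495). The difference kept its sign and passed the test under all 20 other settings tried, with values of -1.54 to -1.10, and was -1.10 (adjusted p = 0.0106) with the GC and length trend removed. For the other 8 genes the difference did not pass: it was -0.88 ± 0.62 for Ccr2, -0.78 ± 0.39 for Cx3cr1, -0.60 ± 0.28 for Adgre1, -0.20 ± 0.11 for Csf1r and between -0.19 and 0.29 for Mrc1, Cd68, Cd163 and Lyve1 (adjusted p of 0.175 to 0.859).

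Reads of 1 marker relative to another within a library do not depend on the scaling between libraries. The 2 ratios given here were chosen after their values were seen and are a description. Tlr4 and Csf1r differ widely in GC content, so their ratio does depend on the base composition of the libraries, in which those of BCAA-free TAC stood apart. For every 100 reads of Csf1r, Tlr4 had 25.4, 21.9 and 21.6 reads in BCAA-free TAC hearts and 33.2, 33.8 and 38.5 in BCAA-free sham hearts, and it had 33.3, 42.7 and 39.7 reads in control diet TAC hearts and 29.4, 25.2 and 23.7 in control diet sham hearts. TAC libraries thus lay below sham libraries on the BCAA-free diet and above them on the control diet. No GC correction was applied to these ratios. For every 100 reads of Lyve1, Adgre1 had 20.3, 26.5 and 25.1 reads in BCAA-free TAC hearts and 29.0, 16.0 and 25.8 in BCAA-free sham hearts, and it had 59.6, 151 and 77.4 reads in control diet TAC hearts and 55.9, 50.5 and 34.8 in control diet sham hearts. All 6 BCAA-free libraries were lower in this ratio than all 6 control diet libraries, and the highest value was again that of control diet TAC replicate 2.

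**Figure D3:**
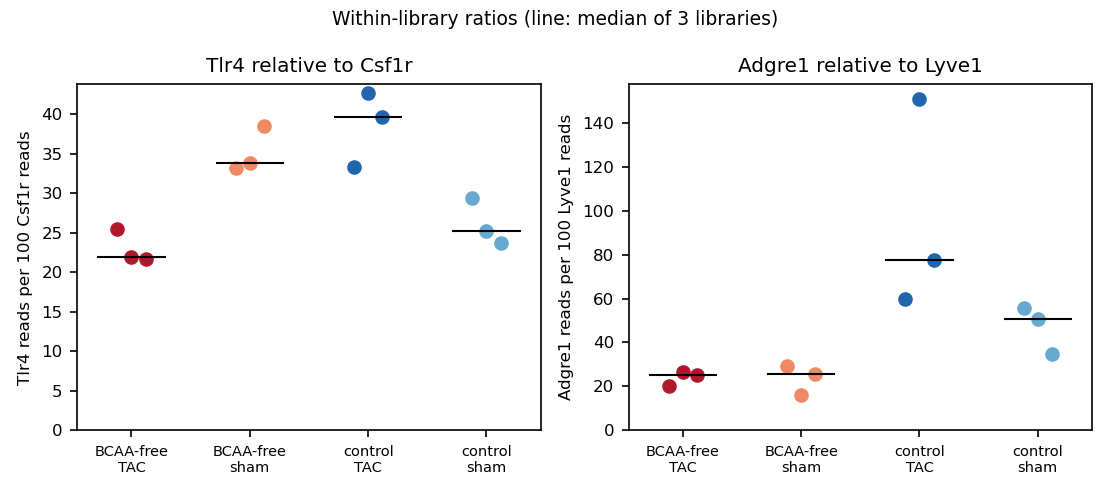
Reads of Tlr4 per 100 reads of Csf1r (left) and of Adgre1 per 100 reads of Lyve1 (right) within each library (y axes, starting at 0), by group (x axes); points are libraries and lines the median of 3. Tlr4 relative to Csf1r is lower with TAC on the BCAA-free diet and higher with TAC on the control diet, and Adgre1 relative to Lyve1 is lower in all BCAA-free libraries.

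Across the 12 libraries, 7 of the markers varied together. Pearson's r of log2 RPM between pairs of Csf1r, Mrc1, Adgre1, Cd68, Ccr2, Cx3cr1 and Tlr4 was 0.634 (Cd68 with Tlr4) to 0.929 (Csf1r with Cx3cr1). Lyve1 correlated negatively with each of these 7, with r of -0.7 to -0.428, and Cd163 weakly, with r of -0.359 to -0.0554. The 12 points fall into 4 groups and share their libraries and scaling, so these values carry the group differences described above. Once each library was set against its group mean, Csf1r and Adgre1 had an r of 0.285 and Ccr2 and Tlr4 of 0.799, while Lyve1 with Ccr2 had -0.756 and Cd163 with Tlr4 -0.748.

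**Figure D4:**
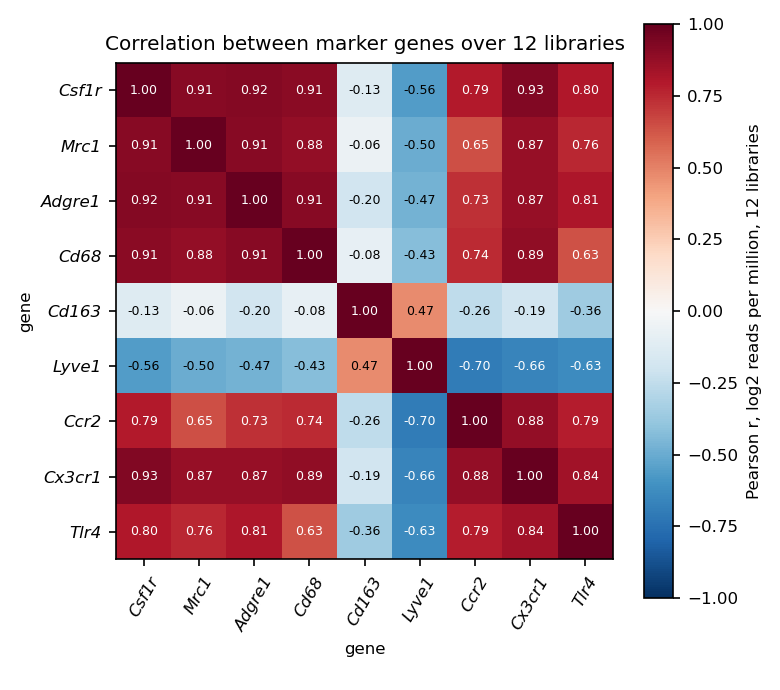
Pearson's r between each pair of markers (both axes) over the log2 RPM of 12 libraries, with the value in each square and colour from -1 (blue) to 1 (red). Lyve1 and Cd163 stand apart from the other 7 genes, which correlate with each other at 0.63 or above.

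Among 10689 genes searched, the genes whose levels over the 12 libraries were most like those of a marker differed by marker. Adgre1 was closest to B2m, a subunit of class I histocompatibility molecules (r = 0.992), and to Fcrls (0.984). Csf1r was closest to Cd248 (0.978), a gene of fibroblasts and pericytes, and to Laptm5 (0.968), a lysosomal protein gene of leukocytes. Tlr4 was closest to Kif5b (0.976), which encodes a kinesin motor, and Tspan2 (0.97), Cx3cr1 to Traf3 (0.975) and Itga9 (0.972), and Mrc1 to Wipi1 (0.969) and Cd55 (0.967). Cd68 was closest to Sez6l2 (0.962) and Stx6 (0.961), Ccr2 to Map3k14 (0.942) and Tgfb1 (0.938), and Lyve1 to Ebna1bp2 (0.916) and Cops6 (0.914). Cd163 had no close neighbour, its highest values being 0.785 with Tmem203 and 0.747 with Ccdc85a.

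Lists of other genes of these cells and of their signals give the surroundings in which the 9 moved. The lists were written with earlier results of these data known, so their counts are a description. In the comparison of BCAA-free TAC with control diet TAC, all 18 of 18 pan-myeloid genes fell, where 17.7% of all genes did. Their median log2 fold change was -1.01, beside 0.000258 over all genes. Cybb, the catalytic subunit of the phagocyte oxidase, averaged 195.1 ± 7.75 counts in BCAA-free TAC hearts and 398 ± 41.0 counts in control diet TAC hearts (adjusted p = 0.00107). Fcgr2b, an inhibitory antibody receptor, fell by 0.89 and Laptm5 by 1.00 on the log2 scale in the same comparison. Leaving out a library made the pan-myeloid count 13 without control diet TAC replicate 3, BCAA-free TAC replicate 1 or BCAA-free TAC replicate 2. On the control diet, 3 of the 18 rose with TAC (Laptm5, Mpeg1 and Ptprc) and 0 fell, with a median of 0.68, where 2.95% of all genes rose. The count of pan-myeloid genes was 10 without control diet TAC replicate 1, 1 without control diet sham replicate 3 and 0 without each other library in turn. It was 8 with the GC and length trend removed, 10 with library totals, 11 with DESeq2, 12 in the fit of all 12 libraries and 17 in that fit with the trend removed. More of all genes passed under each of these settings too, as counted in the last section. Between TAC and sham on the BCAA-free diet, and between diets after sham, 0 of the 18 passed, with medians of 0.22 and -0.51. Of all genes, 6.23% and 0.624% passed there. Between diets after sham, 2 of the 18 fell with the GC and length trend removed, with DESeq2, and without control diet sham replicate 3. Of all genes, more also passed there with the trend removed and with DESeq2.

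Genes of resident macrophages were less uniform. After TAC, 5 of 16 fell and 1 rose in BCAA-free relative to control diet hearts, with a median of -0.14, so that the share that passed was close to the 34.2% of all genes. Of all genes, 17.7% fell and 16.5% rose. The gene that rose was Maf, a transcription factor (log2 fold change 0.29, adjusted p = 0.0443), named here after its value was seen. Ms4a7, a membrane protein gene of macrophages, had the smallest p-value of the list: it averaged 34.9 ± 5.09 counts in BCAA-free TAC hearts and 153.8 ± 60.8 counts in control diet TAC hearts, -2.05 ± 0.28 on the log2 scale (adjusted p = 0.00164). The complement genes C1qb and C1qc, whose products form the first component of the classical pathway, had log2 fold changes of -0.83 (adjusted p = 0.00508) and -0.60 (adjusted p = 0.00683). With TAC on the BCAA-free diet, C1qa, C1qb and C1qc rose by 0.41, 0.44 and 0.43 on the log2 scale (adjusted p of 0.04, 0.0491 and 0.0203). They were 3 of the 16, where 6.23% of all genes passed. The count of the 16 was 0 with the GC and length trend removed, in the fit of all 12 libraries, and without BCAA-free sham replicate 1 or 2 or BCAA-free TAC replicate 3, and 1 without BCAA-free TAC replicate 2. On the control diet 0 of the 16 passed with TAC, where their median was 0.07 and 4.04% of all genes passed. With the GC and length trend removed, 1 of the 16 rose there, and more of all genes passed too. Of 10 monocyte genes tested after TAC, 4 fell with the BCAA-free diet and 0 rose, where 34.2% of all genes passed and 17.7% fell. Ly6c2 and Plac8 passed the filter on low values only in this comparison, so the count is a description of the genes that passed. Among the genes that fell, Vcan, which encodes the proteoglycan versican and is also made by fibroblasts, had a log2 fold change of -1.81. Fcgr1, a high-affinity antibody receptor, was at -1.61, and Cd14, a lipopolysaccharide co-receptor that hands its ligand to TLR4, at -1.21. Ly6c2, Plac8, Chil3 and Treml4 of that list were not in all 4 tables, so the blood monocyte markers are thinly covered.

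Genes of ligands of some of the 9 markers, or of enzymes that make such a ligand, were followed with them. After TAC, 6 of the 17 genes of this list fell with the BCAA-free diet and 0 rose, where 34.2% of all genes passed and 17.7% fell. Of the 17, Ccl8, Ccl12 and Has1 passed the filter on low values only in the tables that hold the control diet TAC group, so the count is a description of the genes that passed. Csf1, a ligand of CSF1R, averaged 1429 ± 108 counts in BCAA-free TAC hearts and 1764 ± 145 counts in control diet TAC hearts (log2 fold change -0.30, adjusted p = 0.0295). Cx3cl1, fractalkine, averaged 323.7 ± 66.6 counts in BCAA-free TAC hearts and 585.9 ± 206 counts in control diet TAC hearts (log2 fold change -0.82, adjusted p = 0.0428). Ccl2, the ligand of CCR2, averaged 37.3 ± 14.4 counts in BCAA-free TAC hearts and 81.8 ± 39.4 counts in control diet TAC hearts, which did not pass (adjusted p = 0.0869). Tnc, which encodes tenascin C, an extracellular matrix protein that can act on TLR4, had a log2 fold change of -3.02 ± 0.73 in that comparison (adjusted p = 0.0255) and of 3.34 ± 0.43 with TAC on the control diet (adjusted p = 0.0265).

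Of 17 genes of TLR4 signalling, 6 fell and 1 rose with the BCAA-free diet after TAC, with a median of -0.19, a share not far from the 34.2% of all genes that passed. Among all genes, 17.7% fell and 16.5% rose. Il1b and Il6 passed the filter on low values only in pairs of groups that include control diet TAC, and Ticam2 only in those that include BCAA-free TAC. The count is therefore a description of the genes that passed. Traf6, a ubiquitin ligase downstream of the receptor, fell by 0.65 on the log2 scale (adjusted p = 0.00803), and Irf3, a transcription factor activated through the receptor, rose by 0.53 (adjusted p = 0.00374). Ly96, which encodes the co-receptor MD-2, averaged 38.6 ± 5.10 counts in BCAA-free TAC hearts and 43.7 ± 4.97 counts in control diet TAC hearts (adjusted p = 0.563), and the adaptor gene Myd88 averaged 481 ± 5.67 counts in BCAA-free TAC hearts and 497 ± 73.8 counts in control diet TAC hearts (adjusted p = 0.824). Tnf, Il1b and Il6 were not in all 4 tables. Of 15 lysosomal genes of phagocytes, 4 fell and 0 rose in the comparison of diets after TAC, where 34.2% of all genes passed and 17.7% fell. The median of the 15 was -0.17, and Ctss, a protease of antigen-presenting cells, fell by 1.32 on the log2 scale (adjusted p = 0.00618).

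**Figure D5:**
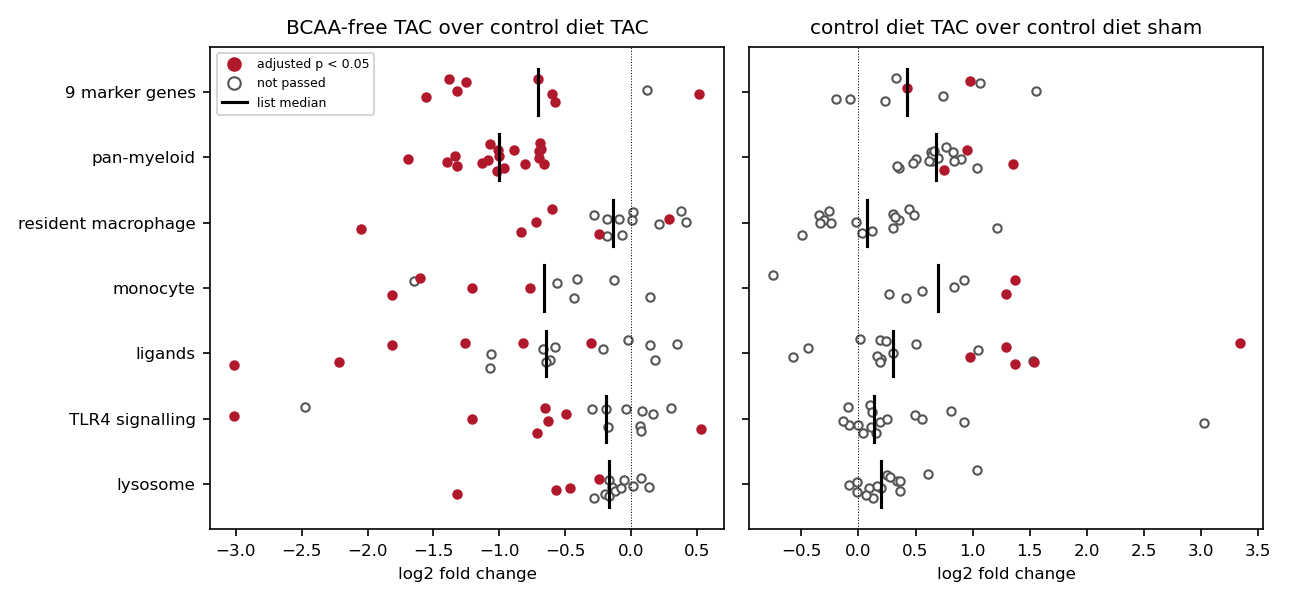
Log2 fold change of each tested gene (points; x axes) in 7 lists (y axis) for BCAA-free TAC over control diet TAC (left) and control diet TAC over control diet sham (right); red points have an adjusted p under 0.05 (limma), open points do not, and black bars are list medians. All 18 pan-myeloid points are red and left of 0 in the left panel, while the resident macrophage genes spread to both sides of 0. The lists were written with earlier results of these data known.

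Markers of other heart cells moved in the same comparisons. Between diets after TAC, 34.2% of all genes passed the test, 17.7% falling and 16.5% rising. The 8 cardiomyocyte genes summed to 79200 to 80000 RPM in BCAA-free TAC libraries and to 49100 to 63100 in control diet TAC libraries, and 5 of the 8 rose and 1 fell with the BCAA-free diet after TAC. The 9 fibroblast genes summed to 1980 to 2290 RPM in BCAA-free TAC libraries and to 2580 to 3640 in control diet TAC libraries, and 7 of the 9 fell. The 9 macrophage markers themselves summed to 119 to 137 RPM in BCAA-free TAC libraries, 114 to 119 in BCAA-free sham libraries, 173 to 177 in control diet TAC libraries and 133 to 148 in control diet sham libraries. Beside the values of Lyve1, the 5 listed genes of lymphatic endothelium summed to 91.9 to 103 RPM in BCAA-free TAC libraries and to 99.5 to 120 in control diet TAC libraries, and 0 of the 5 rose and 1 fell between these groups. The 10 endothelial genes summed to 1360 to 1550 RPM in BCAA-free TAC libraries and to 1600 to 1640 in control diet TAC libraries, with 5 falling and 1 rising. The 6 mast cell genes summed to 7.78 to 8 RPM in BCAA-free TAC libraries and to 13 to 14.9 in control diet TAC libraries, and 2 of the 6, Kit and Hdc, fell. The median log2 fold change of the 6 was -0.19, and 4 of them were below 0. Cpa3 passed the filter on low values only in pairs of groups that include BCAA-free TAC, so the count is a description. The 3 dendritic cell genes listed in both comparisons of TAC with sham summed to 14.9 to 16 RPM in BCAA-free TAC libraries and to 17.4 to 22.8 in control diet TAC libraries, and 2 of 5 tested, Itgax and Zbtb46, fell. Of the 5, Xcr1 and Cd209a passed the filter on low values only in this comparison, so the count is a description. B cell genes summed to 5.58 to 10.8 RPM in BCAA-free TAC libraries and to 6.1 to 10.6 in control diet TAC libraries, with 0 of 5 passing, and neutrophil genes summed to 2.28 to 12.5 RPM in BCAA-free TAC libraries and to 3.39 to 5.99 in control diet TAC libraries, with 1 of 5 rising. Retnlg of the neutrophil list passed the filter on low values only in pairs of groups that include BCAA-free TAC, so that count is a description too.

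With TAC on the control diet, the cardiomyocyte genes summed to 49100 to 63100 RPM in TAC libraries and to 66200 to 75800 in sham libraries, and 1 of the 8, Tnni3, fell. Among all genes, 4.04% passed the test in this comparison and 2.95% rose. The fibroblast genes summed to 2580 to 3640 RPM in control diet TAC libraries and to 2120 to 2330 in control diet sham libraries, and 3 of the 9 rose. The mast cell genes summed to 13 to 14.9 RPM in control diet TAC libraries and to 6.73 to 8.78 in control diet sham libraries, and 1 of 5 tested, Kit, rose. Kit had the highest mean of those tested, 255.5 counts with TAC and 109.3 counts with sham, and so weighs most in the sums. The others did not pass, with log2 fold changes of -0.77 (Cma1) to 0.65 (Mcpt4). The part of these cells, and of the base composition of the BCAA-free TAC libraries beyond the values given, in the differences of the 9 markers was not tested.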

How the data were processed

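The submitters' processing notes name GRCm38, mm10 and 4 tools: Subread 1.5.2, STAR 2.5.2b, Trimmomatic 0.36 and DESeq2 without a version; what each did is not given in the sources used here. Each of the 4 deposited tables covers 1 pair of groups and gives, for 6 libraries, a normalized read signal per gene, with a log2 fold change and p-values by the authors. The deposited signal is a read count divided by a factor of each library and table: at a tolerance of 0.01, 100% of values were whole reads, and each library had the same reads in both of its tables. Each pair of groups was therefore tested within its own table with limma 3.58.1 (trend, robust) in R 4.3.3, on log2(value + 1) of genes with a mean of at least 10, with Benjamini-Hochberg adjustment over all genes tested and a threshold of 0.05. Fold changes on this scale understate those of low genes. The difference between the TAC effects was an interaction term over 12 libraries, each with its values from the table that compares TAC with sham on its diet. Levels across groups are recovered reads per library of common size (RPM) after TMM scaling in edgeR 4.0.16, divided by the longest transcript of GENCODE M21 where given per kilobase; 99.8% of gene IDs matched that annotation. Promoters and their coordinates are from RefSeq. Alternatives were TMM scaling, library totals, no filter, a pseudocount of 10, a replicate block, edgeR, DESeq2 1.42.0, a fit of all 12 libraries, removal of the trend with GC content and length (splines with 5 degrees of freedom) and leaving out each library; the removal of that trend in the fit of all 12 libraries was added after seeing the data. The 9 genes and the gene lists were chosen with earlier results of these data known. All 9 are named; of each list, at most 3 called genes with the smallest p per comparison, ligands or partners of the 9, and for each of the 9 the 2 genes of highest Pearson's r among those with a mean of at least 100. Some genes this rule names are not reported here.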

Additional observations from a re-analysis of the deposited data

Results flagged for a closer look

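The effect of TAC on Tlr4 differed between the diets by the interaction test. The log2 fold change with TAC was -0.39 on the BCAA-free diet and 0.98 on the control diet, and the difference was -1.37 (limma, adjusted p = 0.00495). All 3 BCAA-free TAC libraries lay below all 3 BCAA-free sham libraries, as in 15% of all genes. All 3 control diet TAC libraries lay above all 3 control diet sham libraries, as in 17.8% of all genes. The fall on the BCAA-free diet did not itself pass the test (limma, adjusted p = 0.0695). With the GC and length trend removed it was -0.20 on the log2 scale and did not pass either.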

How the results depend on the processing

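Of 756 values of single markers under other settings, 675 kept their direction and their side of the threshold, 26 lost a call, 32 gained one and 23 changed sign; the cause was not tested for any of these. Scaling by library totals shifted the median of all genes to 0.145 for TAC on the control diet and to -0.129 between diets after TAC, and to -0.2 for the interaction, and the changes of markers shifted with it.

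With TAC over sham in control diet hearts, 2 of the 9 markers and 622 of all genes passed; the counts were 4 and 1416 with library totals, 5 and 2203 with DESeq2, 5 and 2988 in the fit of 12 libraries, 5 and 3738 in that fit with the GC and length trend removed, and 1547 genes with the trend removed alone. Leaving out each library gave 0 to 4 markers and 0 to 1061 genes. For TAC on the BCAA-free diet, 0 markers and 977 genes passed; DESeq2 called 1 marker, and 59, 85 and 8 genes passed in the fit of 12 libraries, with the trend removed and with both. Leaving out each library gave 0 markers and 48 to 1211 genes. Between diets after sham, 0 markers and 95 genes passed; the counts were 3 and 533 with DESeq2, 3 and 366 with 12 libraries, 3 and 373 with the trend removed, 4 and 611 with both, and leaving out each library gave 0 to 2 markers and 6 to 475 genes. Between diets after TAC, 8 markers and 5435 genes passed, and leaving out each library gave 5 to 8 markers and 3368 to 5271 genes. For the interaction, 1 marker and 1314 genes passed; 2157 genes passed with DESeq2, 643 with the trend removed and 216 to 1733 without each library. With library totals, the higher and lower calls were 1267 and 149 genes with TAC in control diet hearts (454 and 168 as reported), 1461 and 3800 between diets after TAC (2618 and 2817 as reported) and 386 and 1462 for the interaction (747 and 567 as reported).

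Same-numbered samples did not deviate together (correlations of -0.18 to 0.08), so the numbers were not taken as pairs; with the replicate block, 2, 0, 0 and 8 markers passed in the 4 comparisons in the order above and 1 for the interaction, Csf1r lost its call for TAC on the control diet (adjusted p = 0.0654), Cx3cr1 gained one (adjusted p = 0.0481), and 143 genes passed between diets after sham.

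Log2 fold changes that changed sign were small. With another setting, Cd163 was at 0.078 with library totals for TAC on the control diet and at -0.0074 between diets after TAC, Tlr4 between diets after sham at -0.049 with the trend removed and at -0.053 in the fit of 12 libraries with the trend removed, and in the interaction Cd68 was at -0.096 with library totals and -0.13 with the trend removed and Mrc1 at 0.11 with the trend removed. Leaving out each library gave these ranges across 0. For TAC on the control diet they were -0.25 to 0.15 for Cd163 and -0.41 to 0.17 for Lyve1. For TAC on the BCAA-free diet they were -0.0088 to 0.22 for Cd163, -0.046 to 0.22 for Lyve1 and -0.036 to 0.094 for Mrc1. Between diets after sham they were -0.053 to 0.16 for Tlr4, -0.80 to 0.12 for Ccr2 and -0.18 to 0.060 for Cd163, and between diets after TAC -0.10 to 0.30 for Cd163. In the interaction they were -0.032 to 0.20 for Cd68, -0.076 to 0.495 for Lyve1 and -0.015 to 0.39 for Cd163. Depth limits Ccr2 most, at 7 to 170 reads in a library.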
